A study of Rattus norvegicus with 15 samples.

Results

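Afp, Gpc3, Mdk, Cd24 and Tff3 are genes used as markers of fetal liver, of liver progenitor cells or of liver tumours. They were chosen by name, as probes whose single gene symbol in the platform annotation was one of these, and each had 1 probe, so they were 5 of the 3400 genes named on the arrays and 5 of the 3757 probes. Arrays were run on RNA of 15 liver samples, all taken after 70 weeks of feeding from male rats of the Fischer344 strain (Fischer in the label of control 1). A basal diet was given in the control group, of which there were 5 samples, named control 1 to 5 here. For the remaining 10 the feed was the choline-deficient, L-amino acid-defined diet, in which free amino acids replace protein and on which rats develop fatty liver, cirrhosis and liver tumours. Of these, 5 were noncancerous cirrhotic tissue around a hepatocellular carcinoma (cirrhotic 1 to 5) and 5 were the carcinoma itself (carcinoma 1 to 5). The labels name no allele, transgene or added agent in any group. Whether each sample is a separate animal, and whether equal numbers share one, is not stated, so the p-values measure only the spread between these samples, which may be technical.

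Each value is a ratio to the median of the same probe over the 15 arrays, quantile-normalized and put on the log2 scale, where 0 lies near the probe's own median and 1 unit is a factor of 2. Such ratios hold no absolute level, so it is not known how strongly any of the 5 genes was expressed, and levels cannot be set against each other between genes. For the same reason the labelled tissue could not be checked by the presence of liver markers. The mean normalized log2 ratio of 17 measured hepatocyte genes ran from -0.82 to 0.41 in control liver, from -0.72 to 0.95 in cirrhotic liver and from -0.37 to 0.84 in carcinoma, so the tissues overlapped in it. In such bulk samples, fewer cells of a type and less RNA per cell cannot be told apart. Between 0 and 229 values per array stood at the deposited lower limit of 0.01, and among the members this held for Cd24 in control 1 alone.

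The 5 genes have different products. Afp encodes alpha-fetoprotein, the albumin relative that fetal liver and yolk sac secrete into plasma, which falls off after birth and returns in some liver tumours and in regenerating or progenitor cells. Mdk encodes midkine, a secreted heparin-binding growth factor of the embryo, and Tff3 a trefoil peptide secreted by mucous epithelia. Gpc3 encodes glypican-3, a heparan sulfate proteoglycan anchored to the cell surface that is made in embryonic tissues and, in humans, in many hepatocellular carcinomas. Cd24 encodes a small, heavily glycosylated surface protein found on biliary and progenitor cells and on leukocytes.

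The bases before the transcription start are shown for Afp, Tff3 and Gpc3, as the genes whose RefSeq promoter entry (build GRCr8) begins at the annotated end of the gene, to set sequence beside the values that follow. They read 5′ to 3′ on the strand of the gene, 150 bases up to the start, with capitals marking matches to 3 motifs: TATAAA (the TATA box), GTTAAT (part of the site of the liver factor HNF1) and GGGCGG (the GC box, which reads CCGCCC on the other strand). Both strands were searched, and no motif overlapped another.
Afp, chr14:17875646-17875795, minus strand: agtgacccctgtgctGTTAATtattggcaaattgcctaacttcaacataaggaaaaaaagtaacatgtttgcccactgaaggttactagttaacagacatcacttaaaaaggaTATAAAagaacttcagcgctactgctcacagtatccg
Tff3, chr20:9199334-9199483, minus strand: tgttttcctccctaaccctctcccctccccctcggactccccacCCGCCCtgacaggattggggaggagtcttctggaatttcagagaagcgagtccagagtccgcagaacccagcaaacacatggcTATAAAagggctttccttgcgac
Gpc3, chrX:137157599-137157748, minus strand: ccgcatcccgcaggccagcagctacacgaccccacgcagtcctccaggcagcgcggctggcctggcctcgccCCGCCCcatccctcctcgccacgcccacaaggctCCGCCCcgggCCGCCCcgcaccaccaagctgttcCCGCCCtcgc

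Afp and Tff3 each held 1 TATAAA match, whose first base lay at -37 and -23 from the start, and Gpc3 and Cd24 held 0 in the 250 bases searched. Over all 33469 promoters in the table, 12.9% had a TATAAA match, 6.45% a GTTAAT match and 30.5% a GGGCGG match. The GTTAAT match of Afp began at -135. Gpc3 held 4 GGGCGG matches, Cd24 held 3 and Tff3 held 1. The GC content of these 250 bases was 37.2% in Afp, 53.6% in Tff3, 71.6% in Gpc3 and 75.6% in Cd24, against a median of 51.2%. Mdk is named only.

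For no member was a difference between tissues detected by the test across all probes. Of the 5 genes, 0 passed an adjusted p of 0.05 in limma in each of the 3 comparisons, as did 0.0% of all probes. At an unadjusted p under 0.05 there were also 0 members in each comparison, where 9.64% of probes passed between cirrhotic and control liver, 7.4% between carcinoma and control liver and 13.2% between carcinoma and cirrhotic liver. No member had its groups apart without overlap in any comparison, a pattern seen in 1.65%, 1.89% and 2.71% of probes in the same order. Of all probes, 0.665% were higher and 0.985% lower in cirrhotic than in control liver without overlap, 1.06% and 0.825% in carcinoma than in control liver, and 1.25% and 1.46% in carcinoma than in cirrhotic liver. The values by sample and the differences between tissues follow gene by gene, secreted products first.

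**Figure D1:**
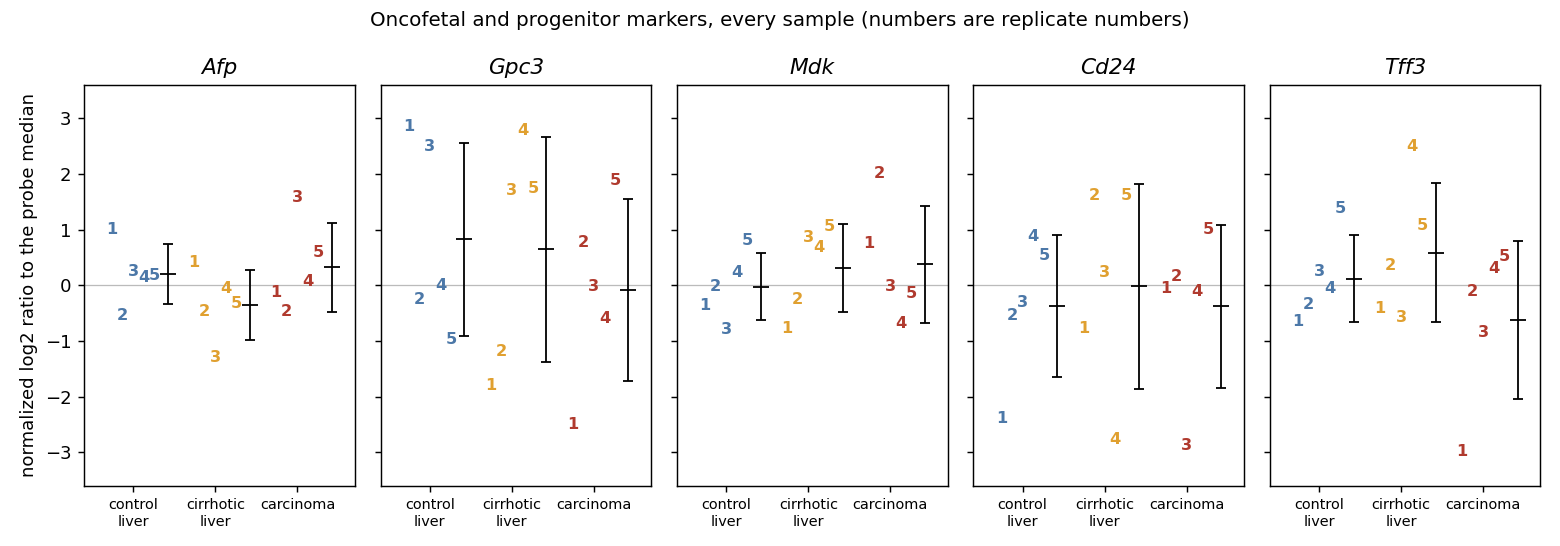
Normalized log2 ratio (y axis) of the 5 genes in control liver, cirrhotic liver and carcinoma, where each digit is 1 sample and gives its replicate number, and the black bar and whiskers are the mean and SD (n = 5). The groups overlap in every panel, Afp runs from -1.30 to 1.58 and Gpc3 from -2.49 to 2.86. Cd24 in control 1 stood at the deposited lower limit.

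Afp had the smallest SD within tissues of the 5 genes. In control liver its normalized log2 ratios were 0.995, -0.53, 0.25, 0.13 and 0.18 in samples 1 to 5. In cirrhotic liver they were 0.41, -0.47, -1.30, -0.06 and -0.33. In carcinoma they were -0.13, -0.48, 1.58, 0.07 and 0.59. Carcinoma 3 was the highest of all 15 samples and cirrhotic 3 the lowest. The second highest was control 1, so a high value was also seen outside the tumours, though in that sample alone. Control 1 was the array with the most values at the deposited lower limit (229). The other control samples reached at most 0.25 and the cirrhotic samples at most 0.41. The means were 0.21 ± 0.54 in control liver, -0.35 ± 0.63 in cirrhotic liver and 0.33 ± 0.80 in carcinoma (SD, n = 5 each). Carcinoma and control liver differed by 0.12 (95% interval -0.89 to 1.14, limma adjusted p = 0.971). The upper end of that interval is 2.20-fold higher in carcinoma. Carcinoma stood above cirrhotic liver by 0.68 (-0.34 to 1.69, limma adjusted p = 0.54), and without carcinoma 3 by 0.36. Cirrhotic liver and control liver differed by -0.56 (-1.57 to 0.46, limma adjusted p = 0.695).

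Mdk, the midkine gene, was highest in carcinoma 2 and otherwise spread alike over the tissues. Its normalized log2 ratios were -0.35, -0.02, -0.79, 0.24 and 0.80 in control 1 to 5. In cirrhotic liver they were -0.78, -0.25, 0.86, 0.69 and 1.05. In carcinoma they were 0.75, 2.01, -0.03, -0.69 and -0.15. Carcinoma 2 lay 1.20 above the highest control sample, whereas the other carcinomas lay within the control range. The means were -0.02 ± 0.60 in control liver, 0.31 ± 0.79 in cirrhotic liver and 0.38 ± 1.05 in carcinoma (SD, n = 5 each). Carcinoma and control liver differed by 0.40 (-0.75 to 1.56, limma adjusted p = 0.87), and without carcinoma 2 the difference was -0.01. The difference between cirrhotic and control liver was 0.34 (-0.82 to 1.49, limma adjusted p = 0.851), with 0.030 after running-median subtraction, and it ranged from 0.14 without control 3 to 0.59 without cirrhotic 1. Between carcinoma and cirrhotic liver it was 0.07 (-1.09 to 1.22, limma adjusted p = 0.969), and -0.35 without carcinoma 2.

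Tff3, the trefoil peptide gene, gave the difference furthest from 0 among the members. Its normalized log2 ratios were -0.64, -0.34, 0.26, -0.05 and 1.38 in control 1 to 5. In cirrhotic liver they were -0.41, 0.35, -0.58, 2.50 and 1.08. In carcinoma they were -2.99, -0.11, -0.85, 0.30 and 0.51. Cirrhotic 4 was the highest of the 15 samples, and carcinoma 1 and carcinoma 3 were the lowest, both below every control sample. The other 3 carcinomas lay among the control samples. The means were 0.12 ± 0.78 in control liver, 0.59 ± 1.26 in cirrhotic liver and -0.63 ± 1.42 in carcinoma (SD, n = 5 each). Carcinoma and cirrhotic liver differed by -1.22 (-2.58 to 0.15, limma adjusted p = 0.417, exact permutation p = 0.206). After subtraction of a running median over neighbouring probe numbers, which takes out level shifts that such probes share, this difference was -0.59, and without carcinoma 1 it was -0.61. Carcinoma and control liver differed by -0.75 (-2.12 to 0.62, limma adjusted p = 0.811), which was -0.15 without carcinoma 1. Cirrhotic and control liver differed by 0.47 (-0.90 to 1.83, limma adjusted p = 0.822), which was -0.01 without cirrhotic 4.

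Bile duct cells are among the liver cells that can carry Tff3 and Cd24. Of 13 other bile duct markers listed for comparison, 7 were measured, among which 0 passed the adjusted threshold. Their mean per sample ran from -0.63 to 0.45 in control liver, from -0.04 to 0.94 in cirrhotic liver and from -0.78 to 0.63 in carcinoma. The highest of these means belonged to cirrhotic 4 (0.94), the sample highest for Tff3 and second lowest for Cd24. Carcinoma 1, the lowest for Tff3, had a mean of 0.23. In the list 6 of the 7 genes lay lower in carcinoma than in cirrhotic liver, with a median difference of -0.84 beside -0.02 over all probes, and at an unadjusted p under 0.05 there were 0. Between cirrhotic and control liver 5 of the 7 lay higher, with a median difference of 0.74 beside 0.02. At an unadjusted limma p under 0.05, 1 of them was higher. For this list no running-median or leave-one-out value was computed. The part of bile duct cells in the Tff3 values was not tested.

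Gpc3, the glypican gene of the surface, varied more between samples than between tissues. Its normalized log2 ratios were 2.86, -0.25, 2.49, -0.00 and -0.97 in control 1 to 5. In cirrhotic liver they were -1.80, -1.19, 1.70, 2.78 and 1.74. In carcinoma they were -2.49, 0.77, -0.02, -0.59 and 1.89. Each tissue held high and low samples, with the highest of all in control 1 and the lowest in carcinoma 1. No carcinoma exceeded the highest control sample, and carcinoma 1 lay below the lowest. As deposited, the ratio ran from 0.0666 in cirrhotic 1 to 8.89 in control 1, a span of 134-fold, where the median span of all probes was 13-fold. The means were 0.82 ± 1.73 in control liver, 0.65 ± 2.02 in cirrhotic liver and -0.09 ± 1.64 in carcinoma (SD, n = 5 each). Carcinoma and control liver differed by -0.91 (-2.92 to 1.10, limma adjusted p = 0.834), with an upper end of 2.14-fold higher in carcinoma. Without carcinoma 1 this difference was -0.30. Carcinoma and cirrhotic liver differed by -0.73 (-2.74 to 1.27, limma adjusted p = 0.757), which was 0.11 after running-median subtraction and -0.091 on the values as deposited. It ranged from -1.28 without cirrhotic 1 to -0.11 without carcinoma 1. Cirrhotic and control liver differed by -0.18 (-2.19 to 1.83, limma adjusted p = 0.956), and by 0.41 without cirrhotic 1.

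Cd24, the other surface marker, had a very low sample in every tissue. Its normalized log2 ratios were -2.39, -0.55, -0.30, 0.87 and 0.54 in control 1 to 5. In cirrhotic liver they were -0.77, 1.62, 0.23, -2.77 and 1.61. In carcinoma they were -0.06, 0.17, -2.88, -0.11 and 0.998. Carcinoma 3 was the lowest of the 15 samples, followed by cirrhotic 4 and control 1, and cirrhotic 2 and cirrhotic 5 were the highest. The deposited ratio was 0.01, the lower limit, in control 1, 0.207 in cirrhotic 4 and 0.139 in carcinoma 3. The means were -0.37 ± 1.27 in control liver, -0.02 ± 1.84 in cirrhotic liver and -0.38 ± 1.47 in carcinoma (SD, n = 5 each). Carcinoma and control liver differed by -0.01 (-1.73 to 1.71, limma adjusted p = 0.998). On the values as deposited this difference was 0.96, and it ranged from -0.50 without control 1 to 0.61 without carcinoma 3. Cirrhotic and control liver differed by 0.35 (-1.37 to 2.07, limma adjusted p = 0.897), and by -0.14 without control 1. Carcinoma and cirrhotic liver differed by -0.36 (-2.08 to 1.36, limma adjusted p = 0.873), and by 0.26 without carcinoma 3.

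**Figure D2:**
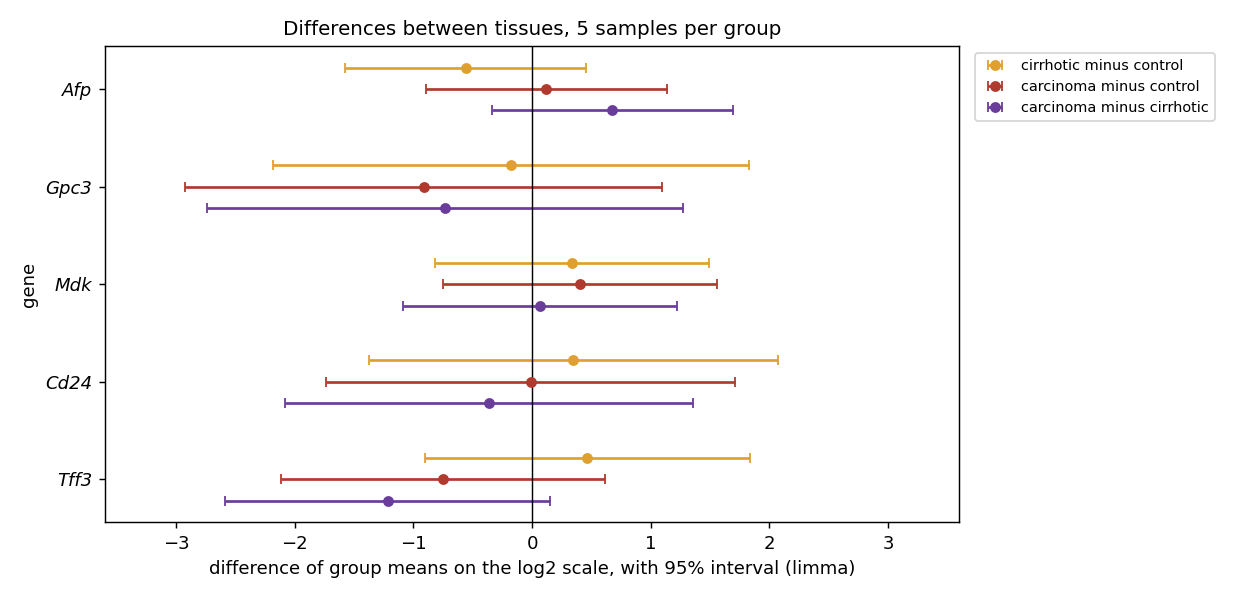
Differences between group means on the log2 scale (x axis) with 95% intervals from limma, 3 comparisons for each of the 5 genes, 5 samples per group. Every interval includes 0, and the one nearest to leaving it is Tff3 between carcinoma and cirrhotic liver (-2.58 to 0.15).

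By mean normalized ratio the tissues stood in a different order for most genes, and neighbours in each order did not differ beyond their spread. Afp ran from cirrhotic liver through control liver to carcinoma, and Mdk from control through cirrhotic liver to carcinoma. Gpc3 ran from carcinoma through cirrhotic liver to control liver, Tff3 from carcinoma through control to cirrhotic liver, and Cd24 from carcinoma and control liver, 0.01 apart, to cirrhotic liver. The exact permutation test over all splits of 5 against 5 samples, two-sided, whose smallest possible p is 0.00794, gave p from 0.19 to 0.968 over the 15 differences, and the lowest p adjusted over those 15 was 0.899.

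Individual carcinomas were then set against the 5 control samples, to see whether any tumour was high for several markers. A sample was called high for a gene when it exceeded the highest control sample. With all 5 control samples in this limit, no carcinoma was high for more than 1 of the 5 genes. Carcinoma 3 was high for Afp, where 17.4% of all probes were high in that sample, carcinoma 2 for Mdk (18.0% of probes) and carcinoma 5 for Cd24 (20.2% of probes). Carcinoma 1 and carcinoma 4 were high for 0 of 5, beside 20.7% and 15.9% of probes. Counts of 0 or 1 of 5 are near these shares of all probes. Carcinoma 5 exceeded the highest control sample for Cd24 by 0.12 and stood at 0.59 for Afp and 1.89 for Gpc3, each below 1 or more control samples. Control 1, the array with the most values at the deposited lower limit (229), set the limit for Afp and Gpc3. Control 5 set that for Mdk and Tff3. Without control 1 or control 5, a choice made after seeing the data, carcinoma 5 was high for 2 genes. The share of all probes was not computed for those limits. With a limit of 1 log2 unit above the control median instead, carcinoma 5 was high for 2 genes, Gpc3 and Cd24, beside 21.2% of its probes, and no other carcinoma for more than 1.

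Carcinomas 1 and 3 were low for some members. Carcinoma 1 lay below the lowest control sample for Gpc3 and Tff3, where 20.2% of its probes did so. Carcinoma 3, the sample highest for Afp, lay below it for Cd24 and Tff3 (14.6% of probes). Carcinomas 2, 4 and 5 were low for 0 of the 5 genes, beside 17.5%, 13.9% and 19.3% of probes. Among the cirrhotic samples, cirrhotic 5 was high for Mdk and Cd24 (17.4% of probes), cirrhotic 2 for Cd24 (16.1%), cirrhotic 3 for Mdk (15.5%), cirrhotic 4 for Tff3 (20.3%) and cirrhotic 1 for none (20.6%). Below the lowest control sample were cirrhotic 1 for Gpc3 (20.2% of its probes), cirrhotic 2 for Gpc3 (15.7%), cirrhotic 3 for Afp (18.1%), cirrhotic 4 for Cd24 (19.3%) and cirrhotic 5 for none (19.2%). With every control sample in the limit, cirrhotic 5 was thus the sample that exceeded all controls for 2 members, Mdk by 0.24 and Cd24 by 0.73. This count in 1 sample is not read as a difference between tissues. On the values as deposited, cirrhotic 4 also exceeded all controls for 2 members, Mdk and Tff3 (20.1% of probes). With the limit of 1 log2 unit above the control median, cirrhotic 5 was high for 4 of the 5 genes, Gpc3, Mdk, Cd24 and Tff3 (20.7% of probes), and cirrhotic 4 for Gpc3 and Tff3 (21.3%). After running-median subtraction, with the highest control sample as the limit again, cirrhotic 5 was high for 0 members (15.2% of probes) and carcinoma 5 for 0 (21.1%). The limit of 1 log2 unit was not applied to those values, so these counts cannot be set against the ones made with it.

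**Figure D3:**
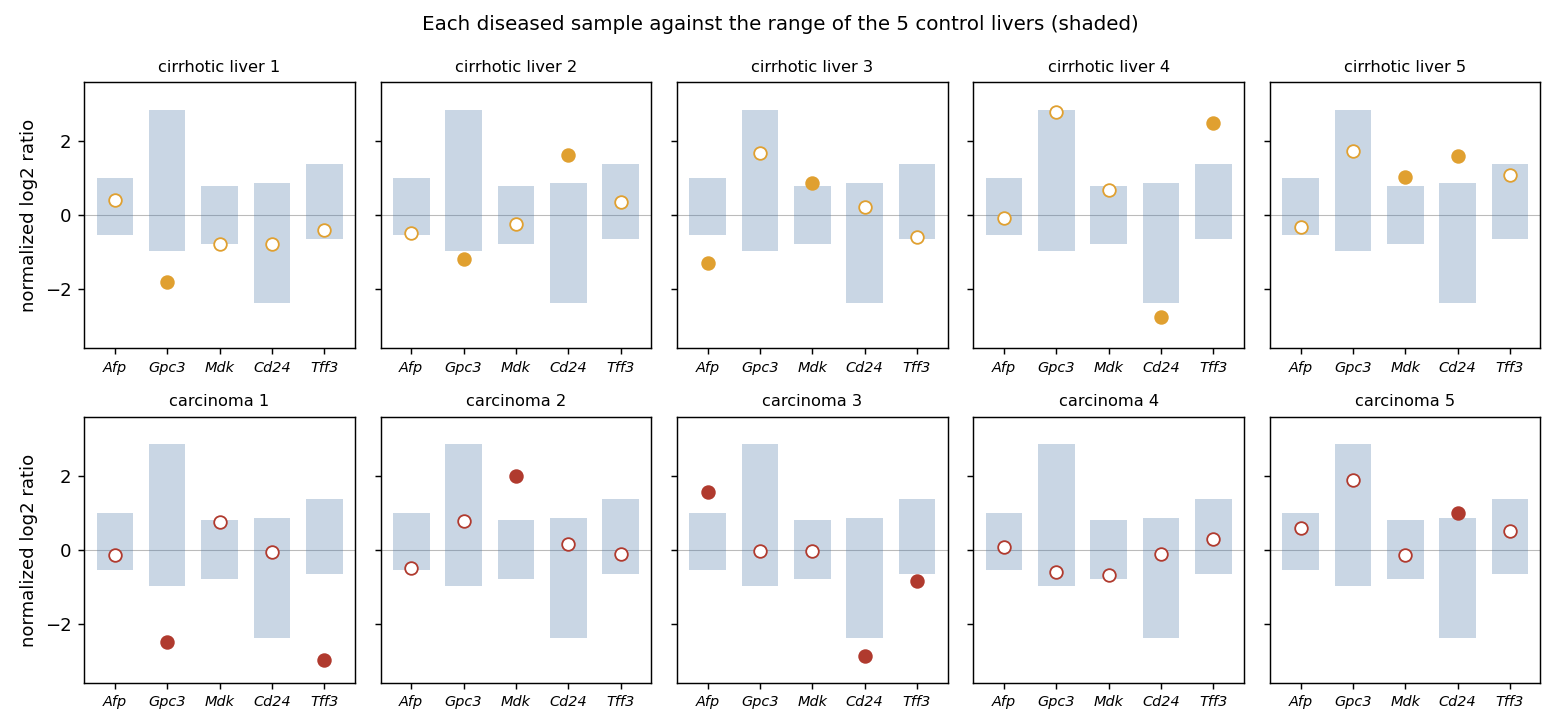
Normalized log2 ratio (y axis) of the 5 genes in each cirrhotic sample (upper row) and each carcinoma (lower row), with the range of the 5 control samples shaded and filled points lying outside it. Carcinomas 2, 3 and 5 each have 1 point above the shading, and carcinomas 1 and 3 each have 2 below it.

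Correlations between members were taken over the 15 samples. Of the 10 pairs, 0 had a correlation that passed after adjustment over the 10, with permutation tests of 100000 resamples. The pair furthest from 0 was Afp and Cd24, with Pearson r = -0.54 (permutation p = 0.0366, adjusted 0.281) and Spearman rho = -0.38 (permutation p = 0.159, adjusted 0.523). Without cirrhotic 3 and carcinoma 3, the samples farthest from the Afp median, r was -0.39. On the values as deposited r was -0.57. There the samples farthest from the Afp median were control 1, at the lower limit for Cd24, and carcinoma 3, and without them r was -0.03. Afp and Mdk had r = -0.46 (permutation p = 0.0843, adjusted 0.281) and rho = -0.57 (permutation p = 0.0268, adjusted 0.268), with r = -0.50 without cirrhotic 3 and carcinoma 3. Gpc3 and Tff3 had r = 0.47 (permutation p = 0.074, adjusted 0.281) and rho = 0.24 (permutation p = 0.4, adjusted 0.799), with r = 0.45 without control 1 and cirrhotic 4. The other 7 pairs had r between -0.26 and 0.19. Of deviations from the tissue means, which take out differences between tissues, r was -0.55 for Afp and Cd24, -0.50 for Afp and Mdk and 0.44 for Gpc3 and Tff3, given as a description over the 15 samples. Within a single tissue there were 5 samples, and no correlation was computed there.

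Differences in spread were large between genes and were not detected between tissues. The SD within groups, pooled over the 3 tissues, was 0.67 for Afp, which is larger than that of 12.8% of probes, and 0.83 for Mdk (32.0%). It was 1.18 for Tff3 (71.6%), 1.55 for Cd24 (92.4%) and 1.80 for Gpc3 (97.3%), against a median of 0.97 over all probes. The tissue accounted for 19.7% of the variance of Afp, 18.3% of that of Tff3, 5.67% for Gpc3, 5.30% for Mdk and 1.45% for Cd24, where the median over all probes was 16.8%. In carcinoma the SD exceeded that in control liver for 4 of the 5 genes, the exception being Gpc3. The median SD over all probes was 0.91 in both tissues, and the share of probes with this order was not computed. For Cd24 the order depended on the measure. Its mean absolute deviation was 0.83 in carcinoma and 0.87 in control liver, and its SD as deposited was 1.56 and 3.04. None of the 15 comparisons of absolute deviations from the group median passed an exact permutation test (p from 0.421 to 0.976, lowest adjusted p = 0.907).

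**Figure D4:**
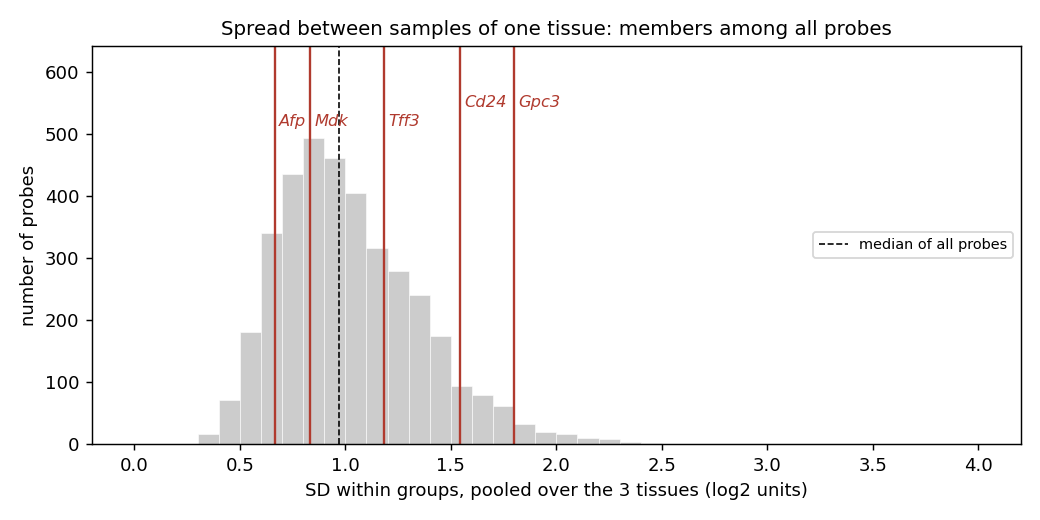
Number of probes (y axis) by SD within groups in log2 units, pooled over the 3 tissues (x axis), with the 5 genes as red lines and the median of all probes dashed. Afp (0.67) and Mdk (0.83) lie below the median of 0.97, and Tff3 (1.18), Cd24 (1.55) and Gpc3 (1.80) above it.

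Genes whose pattern over the 15 samples was most like each member were named as the 3 with the highest Pearson r, as a description. Over all 3757 probes the median of a probe's highest r with another probe was 0.88, so values near this are usual on these arrays. Gpc3 was most like Bhlhe40, a circadian transcriptional repressor (r = 0.92), Sst, which encodes the hormone somatostatin (0.92), and Neo1, the netrin receptor relative neogenin (0.89). Cd24 was most like Ager, the receptor for advanced glycation end products (0.90), and then Lamp1, a lysosomal membrane protein (0.70), and Gzmf, a granzyme (0.69). Tff3 was most like Ninj2 (0.86), Zfp94 (0.86) and the kinase gene Akt1 (0.81). Afp was most like the serotonin receptor gene Htr1d (0.80), Pdia3, a chaperone of the endoplasmic reticulum (0.79), and Dhcr7, the last enzyme of cholesterol synthesis (0.79). For Mdk the highest were Lpl, lipoprotein lipase (0.75), Npr2, a natriuretic peptide receptor (0.74), and Polr1a, an RNA polymerase I subunit (0.73). All 15 of these probes lay at least 181 numbers from the member's own probe in the array numbering.

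Among family relatives of the members no difference was detected. Of 11 such genes 7 were measured, and 0 passed the adjusted threshold in any comparison. Their median difference was 0.52 between cirrhotic and control liver, 0.27 between carcinoma and control liver and -0.27 between carcinoma and cirrhotic liver, beside 0.02, 0.00 and -0.02 over all probes. These medians depended on single samples: the first ranged from 0.10 without cirrhotic 3 to 0.67 without cirrhotic 2, the second from -0.33 without control 2 to 0.39 without control 1, and the third from -0.62 without carcinoma 2 to -0.13 without carcinoma 1. After running-median subtraction the first was 0.20 and the third 0.037, and with array weights the first was 0.12. Tff1, a trefoil peptide of the stomach, differed by -1.51 between carcinoma and control liver (-2.99 to -0.03, limma adjusted p = 0.656). Between cirrhotic and control liver it differed by -1.24 with its groups apart (-2.72 to 0.24, limma adjusted p = 0.561), and by -0.61 after running-median subtraction. Ptn, the pleiotrophin gene and the only relative of midkine in its family, differed by -1.06 between carcinoma and cirrhotic liver (-2.08 to -0.04, limma adjusted p = 0.36; -0.68 after running-median subtraction) and by -0.78 between carcinoma and control liver (-1.80 to 0.24). Tff2 and Gpc1 differed by 0.61 and 0.59 between cirrhotic and control liver, and Gc, the vitamin D binding relative of albumin, by 0.83 between carcinoma and control liver. Between carcinoma and cirrhotic liver Gpc1 differed by -0.32 and Gpc2 by -0.40, values that became 0.03 and 0.19 after running-median subtraction.

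Among 36 receptors, ligands and other partners of the members, 24 were measured and 0 passed the adjusted threshold. At an unadjusted p under 0.05, 1 was higher and 1 lower in cirrhotic than in control liver, 0 differed between carcinoma and control liver, and 2 were higher and 2 lower in carcinoma than in cirrhotic liver. Over all probes 9.64%, 7.4% and 13.2% passed that unadjusted limma p in these comparisons, in the same order. Selp encodes P-selectin, an adhesion receptor of vessels and platelets that binds CD24. It stood 1.46 higher in cirrhotic than in control liver, with its groups apart (0.28 to 2.64, limma adjusted p = 0.413), and differed by -1.46 between carcinoma and cirrhotic liver (-2.64 to -0.28, limma adjusted p = 0.274). Both comparisons share the cirrhotic samples, here and for Fzd2, Muc2, Kit and Hnf4a below, so the differences in them are not independent. Fzd2, a Wnt receptor, differed by -2.01 between cirrhotic and control liver (-3.45 to -0.56, limma adjusted p = 0.378) and by 1.91 between carcinoma and cirrhotic liver (0.46 to 3.35, limma adjusted p = 0.26). After running-median subtraction the Fzd2 differences were -0.92 and 1.36. Muc2, a gel-forming mucin secreted with Tff3 in the intestine, differed by -1.33 and 1.47 in the same comparisons, and by -0.51 and 0.88 after running-median subtraction. Between carcinoma and control liver the smallest p-values belonged to Sdc2, a heparan sulfate proteoglycan (-1.16, interval -2.67 to 0.35), Ctnnb1, which encodes beta-catenin (0.84, interval -0.37 to 2.05), and Fgfr1, a receptor of fibroblast growth factors (-0.79, interval -1.999 to 0.41).

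Of 35 other markers of fetal liver and progenitor cells, 25 were measured and 0 passed the adjusted threshold. At an unadjusted p under 0.05, 2 were higher and 2 lower in cirrhotic than in control liver, 0 higher and 2 lower in carcinoma than in control liver, and 2 higher and 4 lower in carcinoma than in cirrhotic liver. The shares of all probes passing that unadjusted limma p were 9.64%, 7.4% and 13.2% in the same order. Cdh1, the epithelial cadherin, differed by -1.98 between carcinoma and cirrhotic liver (-3.53 to -0.43, limma adjusted p = 0.268). Kit, the stem cell factor receptor, differed by -1.67 in that comparison (-2.81 to -0.53, limma adjusted p = 0.234) and by 1.43 between cirrhotic and control liver (0.29 to 2.57, limma adjusted p = 0.413). Pkm, the pyruvate kinase of fetal liver and most other tissues, was 1.298 higher in carcinoma than in cirrhotic liver with its groups apart (0.38 to 2.21, limma adjusted p = 0.243), and 0.74 higher after running-median subtraction. Hk2, a hexokinase that adult liver has little of, differed by 1.66 between cirrhotic and control liver (0.45 to 2.87, limma adjusted p = 0.391; 0.86 after running-median subtraction). Between carcinoma and control liver Cldn7, a tight junction protein, differed by -1.40 (-2.47 to -0.33, limma adjusted p = 0.564). In that comparison Prom1, a surface marker of progenitor cells, also differed by -1.40 (-2.66 to -0.14, limma adjusted p = 0.645), and S100a4 by -0.93 (-2.01 to 0.15). Cldn7 also differed by -1.22 between cirrhotic and control liver, which was -0.43 after running-median subtraction.

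Transcription factors reported to act on the Afp gene were looked at beside Afp itself. Of 23, 17 were measured and 0 passed the adjusted threshold. At an unadjusted p under 0.05, 1 was higher and 1 lower in cirrhotic than in control liver, and 0 differed between carcinoma and control liver. Between carcinoma and cirrhotic liver, 2 were higher and 0 lower in carcinoma. Beside these counts, 9.64%, 7.4% and 13.2% of all probes passed that unadjusted limma p in the same order. Hnf4a, a nuclear receptor that maintains hepatocyte genes, differed by 1.54 between carcinoma and cirrhotic liver (0.53 to 2.55, limma adjusted p = 0.234) and by -1.06 between cirrhotic and control liver (-2.07 to -0.05), which became 0.97 and -0.35 after running-median subtraction. Cebpa, a factor of mature hepatocytes, differed by 1.87 between carcinoma and cirrhotic liver (0.19 to 3.55, limma adjusted p = 0.332), and Thrb, a thyroid hormone receptor, by -1.01 (-2.03 to 0.00). Cebpb, a relative of Cebpa that acts in the acute phase response, stood 1.98 higher in cirrhotic than in control liver with its groups apart (0.35 to 3.596, limma adjusted p = 0.421; 1.03 after running-median subtraction), and Gata4 differed by 1.09. Between carcinoma and control liver, Foxa2 and Foxa1, which open chromatin at liver genes, differed by -1.13 (-2.26 to 0.00) and -1.06 (-2.38 to 0.27), and the orphan nuclear receptor gene Nr2f1 by 1.24 (-0.10 to 2.58).

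Markers of other cells in liver tissue were summarised for the same samples, with members of the 5 left out. For 15 measured stellate cell and myofibroblast genes the mean per sample ran from -0.54 to 0.25 in control liver, from -0.22 to 0.08 in cirrhotic liver and from -0.28 to 0.26 in carcinoma. For 9 lymphocyte genes it ran from -0.75 to 0.08, from -0.30 to 0.89 and from -0.76 to 0.51. For 5 macrophage and myeloid genes it ran from -1.12 to 0.39, from -0.60 to 0.08 and from -0.09 to 0.72, and for 6 endothelial genes from -0.45 to 0.31, from -0.09 to 0.36 and from -1.01 to 0.15. The ranges of the 3 tissues overlapped for each of these lists, and 0 of their genes passed the adjusted threshold.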

How the data were processed

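Per the labels, total RNA from 15 rat liver samples was measured on arrays, and samples were grouped by title. The deposited values are a linear ratio: the authors' table holds each probe divided by its own median over the 15 arrays (median 1 within 1e-06), with no value under 0.01. Array software, background correction and dyes: not given in the sources used here. Of 3757 probes, 3440 had 1 gene symbol (3429 checked through their gene identifier in RefSeq, GRCr8), 4 had several and 313 had none listed. Array number limits precision.

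Ratios were quantile-normalized, put on the log2 scale without a pseudocount or filter, and fitted with group as the only term over all samples (12 residual degrees of freedom) in limma 3.58.1 (R 4.3.3; lmFit, then eBayes allowing for a trend of variance with mean), Benjamini-Hochberg adjusted over all probes, two-sided. The fit was also run on simulated data, whose outcome is not given here and is not used as support. Permutation tests used Python 3.11.15 with scipy 1.17.1 and figures matplotlib 3.10.9. Genes named outside the members were, per list and comparison, the 3 with the smallest p, and per member the 3 most alike. Where a listed gene had several probes, the one varying least within groups stood for it. The members, lists and settings were chosen with earlier results of these data known. Alternatives were other scalings, a pseudocount of 0.1, a floor at the 10th percentile, a running median over 101 probes removed, no trend, only 2 groups, array weights, a filter on probes at the limit on 3 or more arrays, the replicate block, exact permutation, and leaving out samples. Leaving out each control sample in turn from the limit for a high sample was added after seeing the data.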

Additional observations from a re-analysis of the deposited data

Results flagged for a closer look

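Among the normalized values, Cd24 in carcinoma 3 was the member value that stood far from the rest of its group. Its normalized log2 ratio was -2.88 (deposited ratio 0.139), while the other 4 carcinomas lay between -0.11 and 0.998. In all, 15 groups of 5 samples were examined in this way (5 genes in 3 tissues), and chance alone marks about 1 in 20. A flag among them is therefore not unusual. Normalized Cd24 was nearly as low in cirrhotic 4 (-2.77) and control 1 (-2.39), which were not flagged. The flag depended on the scaling. As deposited, the log2 ratio of carcinoma 3 was -2.85, with the other carcinomas from -0.34 to 1.43. Control 1, at the lower limit, then stood farther off at -6.64, with the other control samples from -0.62 to 0.62. After running-median subtraction carcinoma 3 was at -2.48, with the other carcinomas from -0.53 to 0.89. Without carcinoma 3 the Cd24 difference was 0.61 between carcinoma and control liver and 0.26 between carcinoma and cirrhotic liver. The cause of the low value in carcinoma 3 was not tested.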

How the results depend on the processing

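No difference of a member passed an adjusted p of 0.05 in limma under any alternative run, the lowest being 0.261 for Tff3 between carcinoma and cirrhotic liver with array weights. Signs near 0 did change. Between carcinoma and control liver Cd24 differed by 0.96 as deposited, 0.98 with arrays scaled to the same median, 0.015 with the pseudocount and 0.086 with the floor. After running-median subtraction, cirrhotic minus control was -0.033 for Cd24 and -0.031 for Tff3, and carcinoma minus cirrhotic was 0.11 for Gpc3, 0.030 for Gpc1 and 0.19 for Gpc2. Carcinoma minus cirrhotic for Mdk was -0.041 with array weights and -0.20 without control 1 and cirrhotic 1 together, where cirrhotic minus control for Gpc3 was 0.89. The cause was not tested.

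Leaving out each sample in turn, cirrhotic minus control ranged from -0.72 to 0.41 for Gpc3 (above 0 without control 1, control 3, cirrhotic 1 or cirrhotic 2), from -0.14 to 1.05 for Cd24 (below 0 without control 1, cirrhotic 2 or cirrhotic 5) and from -0.011 to 0.79 for Tff3 (below 0 without cirrhotic 4). Carcinoma minus control ranged from -0.19 to 0.33 for Afp (below 0 without control 2 or carcinoma 3), from -0.0054 to 0.67 for Mdk (below 0 without carcinoma 2) and from -0.50 to 0.61 for Cd24 (above 0 without control 3, control 4, control 5 or carcinoma 3). Carcinoma minus cirrhotic ranged from -0.35 to 0.33 for Mdk (below 0 without cirrhotic 1, cirrhotic 2, carcinoma 1 or carcinoma 2) and from -1.06 to 0.26 for Cd24 (above 0 without cirrhotic 2, cirrhotic 5 or carcinoma 3). Without a change of sign, cirrhotic minus control ranged from -0.74 (without control 2) to -0.33 (cirrhotic 3) for Afp and from 0.14 (control 3) to 0.59 (cirrhotic 1) for Mdk. Carcinoma minus control ranged from -1.39 (carcinoma 5) to -0.30 (carcinoma 1) for Gpc3 and from -1.03 (carcinoma 5) to -0.15 (carcinoma 1) for Tff3. Carcinoma minus cirrhotic ranged from 0.36 (carcinoma 3) to 0.90 (carcinoma 2) for Afp, from -1.28 (cirrhotic 1) to -0.11 (carcinoma 1) for Gpc3 and from -1.54 (cirrhotic 3) to -0.61 (carcinoma 1) for Tff3. Among list genes, Gpc1 ranged from -0.017 (without control 2) to 0.93 between cirrhotic and control liver, and Gpc2 from -0.77 to 0.18 (without carcinoma 5) between carcinoma and cirrhotic liver.

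Probes with groups apart numbered 62, 71 and 102 between cirrhotic and control, carcinoma and control, and carcinoma and cirrhotic liver. Without single samples, which makes groups smaller and separation easier, they ranged from 62 to 199, from 71 to 142 and from 102 to 293; without control 1 and cirrhotic 1 together they were 146, 108 and 293. After running-median subtraction they were 17 between cirrhotic and control, 76 between carcinoma and control and 51 between carcinoma and cirrhotic liver. Probes past the adjusted threshold between carcinoma and cirrhotic liver ranged from 0 to 2, with 2 without cirrhotic 5.

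Members high were 1 in carcinoma 1 as deposited (28.7% of probes) and 1 with equal medians (28.3%), in both Mdk, and in carcinoma 5 they were 0 after running-median subtraction (21.1%) and 2 with the limit of 1 above the control median (21.2%). Leaving out each control sample in turn, chosen after seeing the data, gave 0 to 1 in carcinoma 1, 1 in carcinoma 2 and 3, 0 to 1 in carcinoma 4 and 1 to 2 in carcinoma 5 (2 without control 1 or control 5).

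Mdk and Tff3 had r = -0.0716 as deposited, -0.0722 with equal medians and -0.0046 after running-median subtraction, where Afp and Tff3 had 0.017 and Gpc3 and Mdk -0.071; Gpc3 and Cd24 had 0.17 without control 1 and cirrhotic 4. The difference in mean absolute deviation, cirrhotic minus control, was -0.015 for Afp and -0.52 for Cd24 as deposited, and -0.0093 and -0.51 with equal medians. After running-median subtraction it was -0.11 for Afp, -0.045 for Afp between carcinoma and control, -0.0036 for Mdk in that comparison and -0.039 for Mdk between carcinoma and cirrhotic liver. Whether equal numbers share an animal is not stated. Deviations of same-numbered samples from the group means correlated between -0.34 and 0.39. The best match was the same number in 3 of 15 cases, each with 5 candidate samples. Control samples came from another diet, so only for cirrhotic liver and carcinoma can equal numbers mark 1 animal. Between those tissues r ran from -0.24 to 0.39. There the same number was the best match for number 1 alone (0.39, next 0.06), so no pairing was assumed. Number 1 was also the best match between control and cirrhotic liver (0.32, next 0.18), where the diets differ. With the replicate block 0 probes passed the adjusted threshold in each comparison. Each block held 1 sample per tissue, so the block could not change a difference or its sign, only the p-values. Tff3 between carcinoma and cirrhotic liver (-1.22) had limma adjusted p = 0.348 with the block, beside 0.417 without it. Its unadjusted limma p lay below 0.05 with the block and above 0.05 without it. Because the ratios carry no absolute signal, it is unknown which values lay near background.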
